A study of Mus musculus with 18 samples.

Results

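Primary mouse microglia labelled Tbk1+/-;Ripk1D138N/D138N were compared with wild-type (WT) microglia across every expressed gene, to see what differed and what lay at the WT level. The comparison used 6 of the 18 RNA-sequencing libraries of the series, 3 labelled Tbk1+/-;Ripk1D138N/D138N and 3 labelled WT, and 13447 of 50686 listed genes had enough counts to be tested. By their label, cells of the first genotype carry a single functional Tbk1 allele and, on both alleles of Ripk1, the D138N change. The 3 libraries labelled Tbk1+/-, with Ripk1 unaltered, served as a second reference. All 3 genotypes are on the C57BL/6 strain, and the cells were grown from the forebrain of pups of postnatal day 2 in a mixed culture with serum, then shaken off. Nothing in the labels ties a library to its own animal or culture, and the p-values therefore measure library-to-library spread, which may be technical. The other libraries of the series carried an altered Tak1 allele. They entered the choice of tested genes, the scaling and the shared estimate of the spread. Otherwise only their Tbk1 and Il7r levels and totals are given.

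RIPK1 is a kinase that is recruited to the tumor necrosis factor (TNF) receptor, where it either serves as a scaffold for NF-kB signalling or, once its kinase is active, starts apoptosis through caspase-8 or necroptosis through RIPK3 and MLKL. TBK1 and TAK1 phosphorylate RIPK1 and hold its kinase in check. TBK1 also relays signals of nucleic acid sensors to IRF3 and type I interferon, and microglia, the resident macrophages of the brain, express these pathways. The D138N change replaces the catalytic aspartate of the RIPK1 kinase and leaves its scaffold in place. The series asks how TBK1 limits cell death and inflammation driven by RIPK1, and the comparison shows whether the libraries with this label differ from WT in their RNA.

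The altered codon is shown because it defines the genotype and cannot be read from counts per gene. In the reference genome (GRCm38, GENCODE M21) the Ripk1 codon that D138N alters lies in exon 4, on the plus strand at chr13:34013340-34013342, and encodes aspartate in Ripk1-201 and in Ripk1-203. The WT reference coding sequence around it, with the codon in capitals, is given 5′ to 3′.
Ripk1, codon of the D138N change: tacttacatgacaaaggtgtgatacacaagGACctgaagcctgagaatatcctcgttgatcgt

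Tbk1 RNA did not follow the label in 2 of the 3 libraries. Tbk1 (ENSMUSG00000020115, chromosome 10, 121546455 to 121586787) had 130, 54.9 and 131 CPM, counts scaled to 1e+06 per library, in the libraries labelled Tbk1+/-;Ripk1D138N/D138N, against 106, 104 and 149 CPM in those labelled WT. Replicate 2 lay near the mean of 57.7 CPM in the libraries labelled Tbk1+/-, and replicates 1 and 3 lay within the WT range. The log2 fold change against WT was -0.18 (95% interval -0.70 to 0.34, adjusted p = 0.988). In the libraries labelled Tbk1+/-;Tak1ΔM/+;Ripk1D138N/+, the other genotype with D138N, Tbk1 was likewise at 123, 107 and 115 CPM. Those labelled Tbk1+/-;Tak1ΔM/+ had 55.1, 56.4 and 66 CPM. The reason was not tested. Every direction given here is therefore that of the libraries with this label. Ripk1 itself (ENSMUSG00000021408, chromosome 13, 34002363 to 34037147) had 49.5, 23.7 and 16.2 CPM in Tbk1+/-;Ripk1D138N/D138N, against 19.1, 16.97 and 23.8 CPM in WT. Replicate 1 stood above all others and the groups overlapped, with a log2 fold change of 0.58 (95% interval -0.33 to 1.49, adjusted p = 0.958). A changed amino acid need not change the count of a gene, so Ripk1 counts do not test that part of the label. Map3k7 (ENSMUSG00000028284, chromosome 4, 31964097 to 32023467), which encodes TAK1 and is unaltered in these genotypes, had 16.6, 15.1 and 9.34 CPM in Tbk1+/-;Ripk1D138N/D138N and 10.9, 10.4 and 19.2 CPM in WT, in overlapping ranges.

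**Figure D1:**
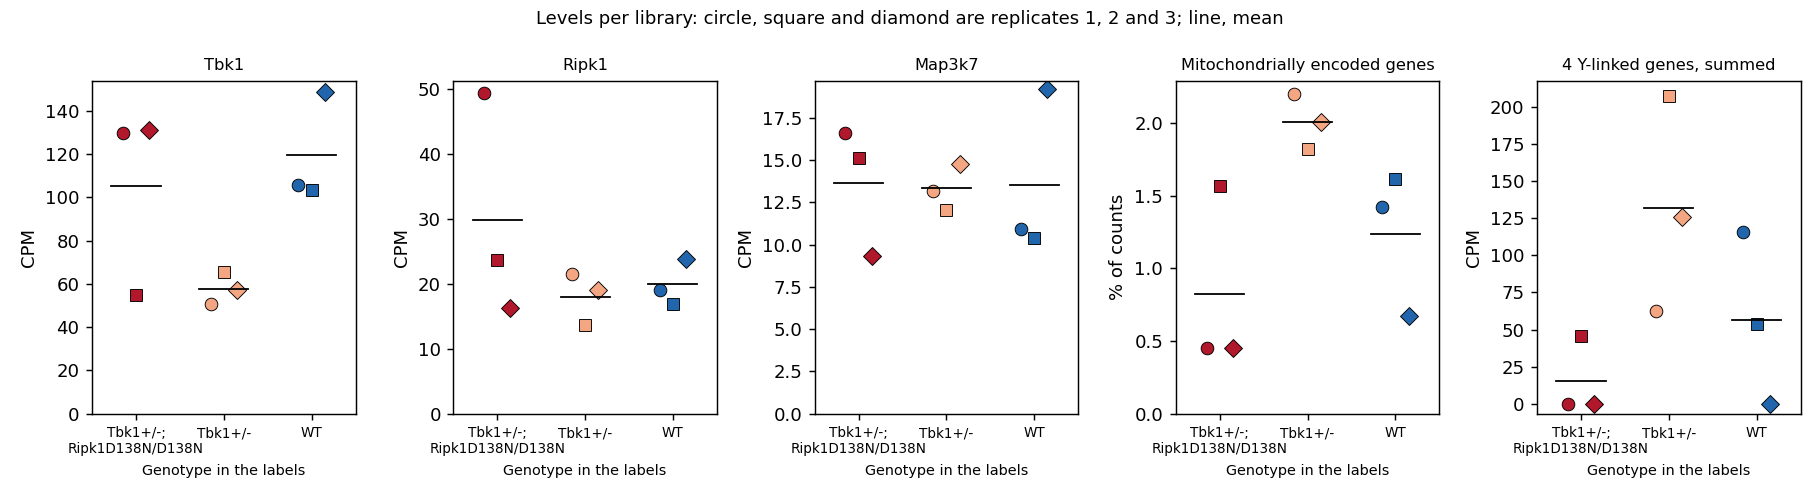
Level of Tbk1, Ripk1 and Map3k7 (CPM), share of counts from mitochondrially encoded genes (%) and summed level of 4 Y-linked genes (CPM) in each library of 3 genotypes, with the mean as a line. Tbk1 was at 54.9 CPM in Tbk1+/-;Ripk1D138N/D138N replicate 2 and at 130 and 131 CPM in replicates 1 and 3, and the mitochondrial and Y-linked levels split the 6 libraries compared in the same way.

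The 6 libraries also fell apart in a way that the genotypes do not give. Mitochondrially encoded genes took 0.451%, 1.57% and 0.449% of counts in Tbk1+/-;Ripk1D138N/D138N, against 1.42%, 1.62% and 0.671% in WT. The summed level of 4 Y-linked genes was 0, 45.7 and 0 CPM in Tbk1+/-;Ripk1D138N/D138N, and 116, 53.6 and 0 CPM in WT. Tbk1+/-;Ripk1D138N/D138N replicate 2 and WT replicates 1 and 2 thus had a high mitochondrial share and Y-linked RNA, and the other 3 libraries had neither. Xist and the 4 Y-linked genes, the list of sex-linked genes, had 0 of 5 members within 2-fold of WT. The mean chi-square per gene between Tbk1+/-;Ripk1D138N/D138N replicates 1 and 3 was 14.98, against 84.8 and 72.8 between each of them and replicate 2. In WT it was 15.3 between replicates 1 and 2, and 56.7 and 60.8 between each of them and replicate 3. No pair agreed within sampling noise, which bears only on copies of the same library. The check cannot tell separate cultures from separate preparations of the same culture. All 6 were counted as separate samples. The totals were close, from 15364269 to 18370477 counts in Tbk1+/-;Ripk1D138N/D138N and from 16275849 to 18134681 in WT, while the 18 libraries ran from 8016559 to 22989116.

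No gene differed between Tbk1+/-;Ripk1D138N/D138N and WT microglia at an adjusted p under 0.05. The quasi-likelihood test of edgeR called 0 of 13447 genes (0%), and its smallest adjusted p was 0.934. Before adjustment 688 genes (5.12%) had a p under 0.05, 313 of them higher and 375 lower. By limma-voom 0 genes were called, and by DESeq2 7, of which 1 was higher and 6 were lower. The count stayed at 0 with the mitochondrial share as a covariate, with each library left out in turn, and with the 2 libraries of WT-like Tbk1 left out together. It was also 0 among the libraries with a mitochondrial share above 1% and among those under 1%, where a genotype has a single library that is assumed to vary like the others.

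A missed threshold does not show that levels are alike, so the 95% interval of each fold change was set against fixed bounds. For 7464 genes (55.5%) the whole interval lay within 2-fold of WT, and for 3671 (27.3%) within 1.5-fold. The intervals are per gene and not adjusted for their number. How many genes could be bounded depended on their level. Of the 2351 genes with a mean under 1 CPM 0% were within 2-fold, with a median half-width of 2.83 on the log2 scale. The share was 6.74% of 2180 genes from 1 to 5 CPM and 40.4% of 1403 genes from 5 to 10 CPM. It reached 85.6% of 4674 genes from 10 to 50 CPM, 96.8% of 1457 genes from 50 to 100 CPM and 97% of 1382 genes above that, where the median half-width was 0.31. The remaining 5983 genes were neither called nor bounded within 2-fold, so for them neither a difference nor a level near WT was shown by this fit. Of these, 417 had an unadjusted p under 0.05, and 4 that are named next (Ptchd1, Il7r, Cd109 and Jade3) were called by DESeq2. Among the 688 genes at an unadjusted p under 0.05, 271 were within 2-fold of WT.

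**Figure D2:**
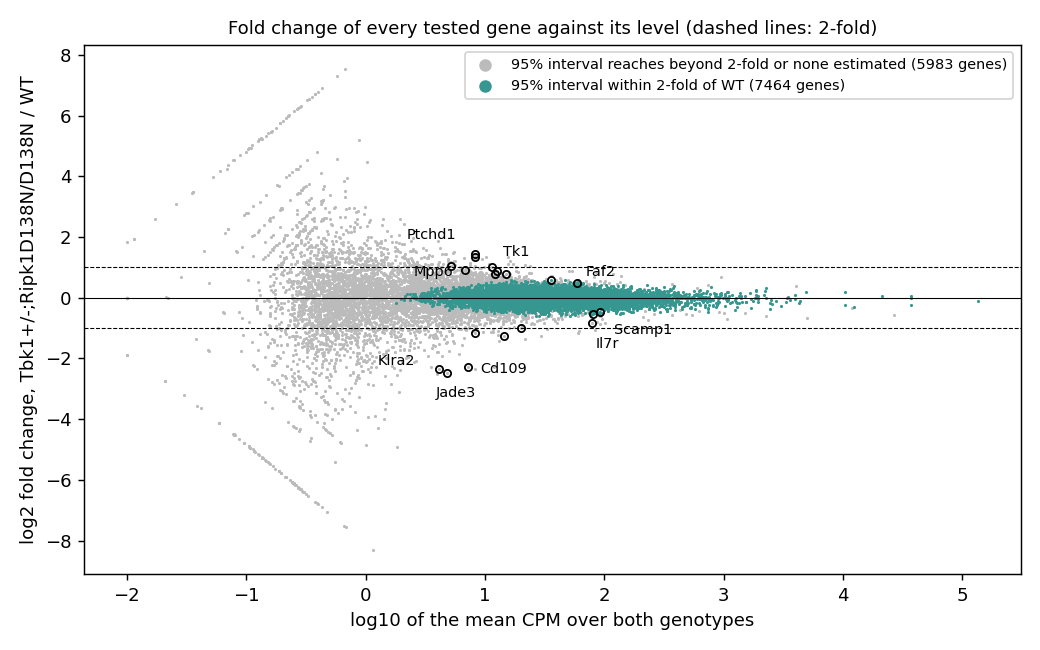
Fold change of each tested gene (log2, Tbk1+/-;Ripk1D138N/D138N over WT) against the mean level over both genotypes (log10 CPM), with the 7464 genes bounded within 2-fold in green and the 5983 others in grey. The named genes of smallest p are circled, the green genes lie almost all above 5 CPM, and the diagonal lines on the left are genes with 0 counts in all libraries of a genotype.

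Of the genes with the narrowest intervals, Rps3a1, which encodes a protein of the small ribosomal subunit, had 196, 191 and 184 CPM in Tbk1+/-;Ripk1D138N/D138N and 194, 186 and 187 CPM in WT, with a log2 fold change of 0.01 (95% interval -0.18 to 0.20). Wasf2, an activator of actin branching, had 169, 164 and 173 CPM in Tbk1+/-;Ripk1D138N/D138N and 171, 171 and 168 CPM in WT, with a log2 fold change of -0.01 (-0.20 to 0.18). The groups overlapped in both genes. Tpm3, Ctnna1, Mob1a, Dazap2, Snrpb, Rps14 and Eif4h followed, with log2 fold changes from -0.20 in Ctnna1, which encodes alpha-catenin, to 0.13 in Rps14, another protein of the small ribosomal subunit. The interval of Ctnna1 excluded 0 (-0.40 to -0.01), so a gene within 2-fold is bounded and not shown to be identical.

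The libraries of both genotypes stood apart without overlap in 1060 of the 9112 genes that averaged 5 CPM or more in either (11.6%), 559 higher and 501 lower. With 3 libraries in each genotype such separation is common without any difference, so a lack of overlap alone does not show one. A log2 fold change of 1 or more in size was seen in 106 of the 9112, and in 57 of these the groups did not overlap. The 10 genes of smallest p in each direction among the 1060 are given as values, since none passed the test (adjusted p = 0.934 for each). A gene with a clone name in the lower direction was counted and left unnamed.

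Of the higher genes, Ptchd1 had the smallest p. Ptchd1 (chromosome X, 155573455 to 155623814) encodes a patched-domain membrane protein and had 13.8, 12.3 and 10.6 CPM in Tbk1+/-;Ripk1D138N/D138N, against 2.41, 6.01 and 4.99 CPM in WT. All 3 libraries were above all WT libraries, and the log2 fold change was 1.45 (95% interval 0.77 to 2.12, unadjusted p = 0.000315). DESeq2 called it (adjusted p = 0.0402). Its log2 fold change was 1.54 among the libraries of high mitochondrial share and 1.28 among those of low share. Ufd1 and Faf2 both act with the ATPase p97 in the extraction of ubiquitinated proteins. Ufd1 had 44.6, 40.9 and 41.7 CPM in Tbk1+/-;Ripk1D138N/D138N against 25.1, 24.7 and 35.9 CPM in WT, and Faf2 had 69.8, 68.6 and 68.2 CPM against 52.1, 57.2 and 39.4 CPM in WT. The intervals of both, 0.26 to 0.88 and 0.20 to 0.75 on the log2 scale, excluded 0 and lay within 2-fold. Tk1, a thymidine kinase of S phase, had 14.3, 18.9 and 13.3 CPM in Tbk1+/-;Ripk1D138N/D138N against 7.60, 7.01 and 8.18 CPM in WT (log2 fold change 1.02). The log2 fold change of Tk1 was 1.37 among the libraries of high mitochondrial share and 0.75 among those of low share. Nf1, which encodes the Ras inhibitor neurofibromin, had 11.1, 16.4 and 21.4 CPM in Tbk1+/-;Ripk1D138N/D138N against 8.80, 8.84 and 8.64 CPM in WT, so the WT libraries were close together and the others spread. The remaining higher genes were Fhl3, Plpp7, Mpp6, Them4 and Wdr92, with log2 fold changes from 0.77 to 1.33.

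Of the named lower genes, Cd109 and Il7r had the smallest p. Il7r (chromosome 15, 9505788 to 9530176), the receptor chain for interleukin 7, had 55.7, 65.97 and 49.5 CPM in Tbk1+/-;Ripk1D138N/D138N, against 88.9, 128 and 86.6 CPM in WT. Its groups did not overlap, with a log2 fold change of -0.83 (95% interval -1.21 to -0.45, unadjusted p = 0.000263, DESeq2 adjusted p = 0.0359). The log2 fold change of Il7r was -0.72 among the libraries of high and -0.72 among those of low mitochondrial share. Cd109 (chromosome 9, 78615546 to 78716253), a membrane-anchored co-receptor that restrains TGF-beta signalling, had 0.517, 2.36 and 4.46 CPM in Tbk1+/-;Ripk1D138N/D138N, against 9.37, 16.6 and 9.98 CPM in WT. The log2 fold change was -2.29 (-3.31 to -1.28), and DESeq2 called it (adjusted p = 0.0146). Jade3, a subunit of a histone acetyltransferase complex, had 0.517, 0.763 and 3.01 CPM in Tbk1+/-;Ripk1D138N/D138N, against 4.56, 13.3 and 6.50 CPM in WT (log2 fold change -2.49, DESeq2 adjusted p = 0.0359). These 2 genes were low in all D138N/D138N libraries, and highest in WT replicate 2. Scamp1, a protein of vesicle traffic, and Dr1, a repressor of transcription by RNA polymerase II, had smaller differences, with log2 fold changes of -0.48 and -0.52 and intervals within 2-fold. Pde4dip, Zfp931, Klhdc10 and Klra2 had log2 fold changes from -2.33 to -0.98. DESeq2 also called the unnamed gene and Dcn and Sulf1, which were at 0 in all 3 Tbk1+/-;Ripk1D138N/D138N libraries and, in WT, at 6.01, 0.943 and 0 CPM for Dcn and at 1.65, 0 and 2.32 CPM for Sulf1.

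**Figure D3:**
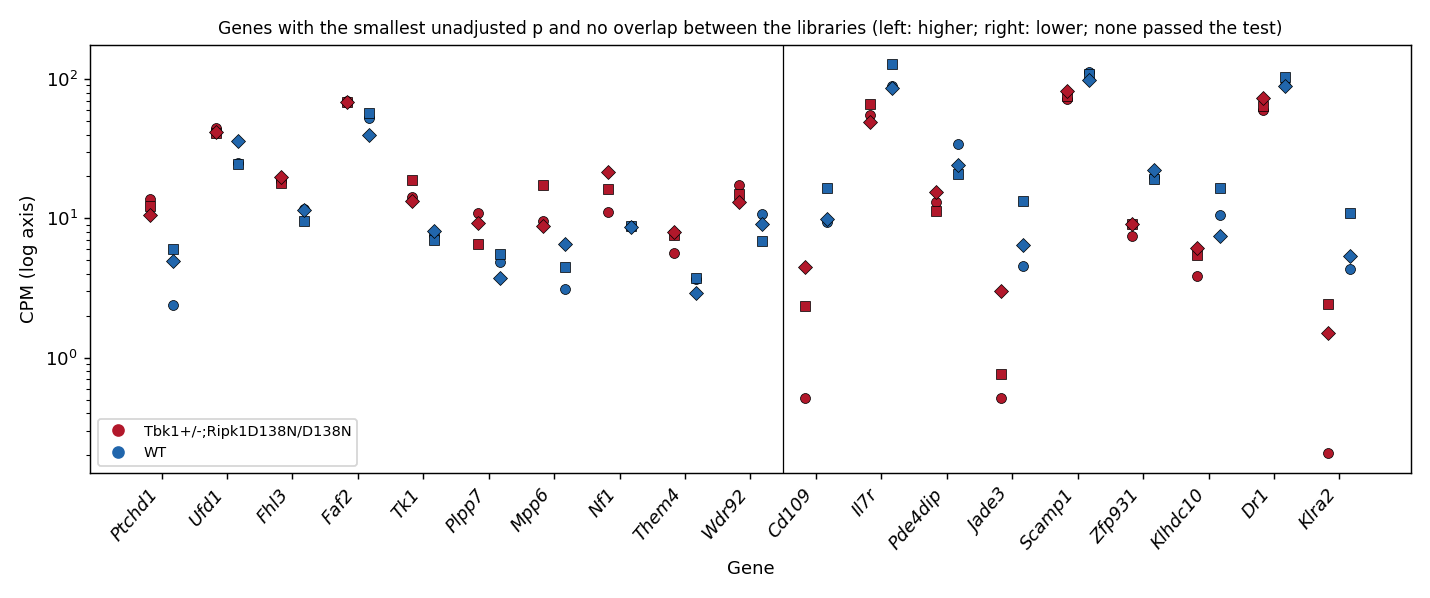
Level (CPM, log axis) in each library of the 19 named genes with the smallest unadjusted p among those whose libraries did not overlap, 10 higher on the left and 9 lower on the right. The D138N/D138N libraries are in red and WT in blue, and none of the genes passed the test (adjusted p = 0.934).

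Gene lists of the pathways and cell states concerned are described next by how many members were within 2-fold of WT and by their median. For all genes tested these were 55.5% and 0.02. The share within 2-fold rose with level, from 0% under 1 CPM to 85.6% from 10 to 50 CPM and 97% above 100 CPM. The lists were not matched for level, so a share above 55.5% does not set a list apart. No list held a called gene. From each list the members with the most counts are given, and any other member was chosen after its values were seen.

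Components of the TNF receptor complex and of the TBK1, IKK and TAK1 kinases were mostly bounded near WT. All 28 listed members were tested, 25 (89.3%) were within 2-fold, and the median log2 fold change was 0.08. The TNF receptor Tnfrsf1a had 151, 122 and 151 CPM in Tbk1+/-;Ripk1D138N/D138N and 131, 135 and 129 CPM in WT. The IKK subunit Ikbkb had 96.9, 63.0 and 85.4 CPM in Tbk1+/-;Ripk1D138N/D138N and 74.8, 76.3 and 83.7 CPM in WT, and replicate 2 lay below the other libraries in both genes. Rbck1, which encodes the linear ubiquitin ligase subunit HOIL-1, was higher in all 3 libraries, at 89.6, 73.8 and 87.6 CPM against 72.0, 58.5 and 72.9 CPM in WT, with a log2 fold change of 0.30 (95% interval -0.08 to 0.69). Cyld, a deubiquitinase that removes linear and K63-linked chains from this complex, had a log2 fold change of -0.34, and Otulin, which cleaves linear chains, 0.66, both with an unadjusted p under 0.05 (0.0348 and 0.0496). Ikbke, the kinase most like TBK1, had 76.3, 22.9 and 81.4 CPM in Tbk1+/-;Ripk1D138N/D138N and 51.9, 42.2 and 72.6 CPM in WT, with replicate 2 lowest of the 6.

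Of the genes of RIPK1-dependent death and apoptosis, 25 of 28 (89.3%) were within 2-fold, with a median of 0.03. Bax, an effector of mitochondrial apoptosis, had 127, 115 and 123 CPM in Tbk1+/-;Ripk1D138N/D138N and 131, 112 and 113 CPM in WT. Casp8, the initiator caspase activated downstream of RIPK1, had 116, 109 and 103 CPM in Tbk1+/-;Ripk1D138N/D138N and 88.8, 108 and 118 CPM in WT, with a log2 fold change of 0.05 (95% interval -0.26 to 0.36). Both genes overlapped between the genotypes. Cflar, the caspase-8 inhibitor cFLIP, had 59.5, 48.4 and 53.5 CPM in Tbk1+/-;Ripk1D138N/D138N, against 67.6, 69.9 and 61.3 CPM in WT (log2 fold change -0.30, unadjusted p = 0.0292). Casp9, the initiator caspase of the apoptosome, had 53.3, 59.7 and 56.1 CPM in Tbk1+/-;Ripk1D138N/D138N, against 46.6, 37.2 and 48.3 CPM in WT (log2 fold change 0.36, unadjusted p = 0.0222). The groups did not overlap in either gene, and both intervals were within 2-fold. The members not bounded were Ripk1, Ripk3 and Bcl2. Ripk3, the necroptosis kinase, had 13.3, 13.3 and 13.04 CPM in Tbk1+/-;Ripk1D138N/D138N, against 7.85, 10.1 and 8.76 CPM in WT, without overlap (log2 fold change 0.57, 95% interval -0.31 to 1.44). Mlkl, which RIPK3 phosphorylates, had 6.05, 8.32 and 4.99 CPM in Tbk1+/-;Ripk1D138N/D138N and 8.42, 6.60 and 5.28 CPM in WT.

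Sensors and adaptors upstream of TBK1 had 16 of 20 members (80%) within 2-fold and a median of 0.01. In 7 of the 20 the libraries did not overlap, beside 1455 of all 13447 genes tested and 11.6% of those at 5 CPM or more. Tlr7 and Tlr4, receptors for single-stranded RNA and for lipopolysaccharide, were lower than WT in all 3 libraries, with log2 fold changes of -0.28 and -0.43 (unadjusted p = 0.166 and 0.139). Tlr4 had 157, 201 and 199 CPM in Tbk1+/-;Ripk1D138N/D138N, against 253, 231 and 269 CPM in WT. Cgas, the cytosolic DNA sensor, had 4.75, 4.37 and 4.51 CPM in Tbk1+/-;Ripk1D138N/D138N, against 5.00, 11.3 and 12.0 CPM in WT (log2 fold change -1.05, unadjusted p = 0.0154). Tlr9, a sensor of CpG DNA, had 7.65, 8.32 and 7.35 CPM in Tbk1+/-;Ripk1D138N/D138N, against 4.56, 1.88 and 3.597 CPM in WT (log2 fold change 1.22, unadjusted p = 0.0152). Traf6, a ubiquitin ligase of Toll-like receptor signalling, and Tlr3, a sensor of double-stranded RNA, had log2 fold changes of -0.54 and -0.75 (unadjusted p = 0.0151 and 0.0262). Unc93b1, the chaperone of endosomal Toll-like receptors, and Tmem173, which encodes STING, were bounded, with log2 fold changes of 0.17 and 0.19.

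All 48 listed members of the type I interferon response were tested, 31 (64.6%) were within 2-fold, and 30 were above 0 with a median of 0.13. Slfn2 had 228, 219 and 239 CPM in Tbk1+/-;Ripk1D138N/D138N and 235, 226 and 233 CPM in WT. Ifitm3, an inhibitor of viral entry, had 227, 327 and 215 CPM in Tbk1+/-;Ripk1D138N/D138N and 292, 300 and 201 CPM in WT, where the libraries followed the mitochondrial share and not the genotype. Isg15, a ubiquitin-like product of interferon signalling, was low in both genotypes, at 3.82, 5.48 and 5.21 CPM in Tbk1+/-;Ripk1D138N/D138N and 6.01, 4.12 and 5.45 CPM in WT, and was bounded all the same (-0.61 to 0.40). Ifit1, Ifit2, Ifit3, Mx1, Mx2, Oas2, Oas3, Usp18 and Cxcl10 were among the 17 not bounded. Mx1, an antiviral GTPase, had 6.56, 2.22 and 2.95 CPM in Tbk1+/-;Ripk1D138N/D138N, against 1.20, 0.530 and 2.38 CPM in WT, in ranges that overlapped (log2 fold change 1.51, unadjusted p = 0.0377). Sp100, a nuclear body protein, had 43.1, 43.6 and 44.5 CPM in Tbk1+/-;Ripk1D138N/D138N, against 33.6, 25.0 and 37.4 CPM in WT (log2 fold change 0.45, unadjusted p = 0.025).

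Inflammatory cytokines and chemokines were the least bounded of the immune lists, with 5 of 23 tested members (21.7%) within 2-fold and a median of 0.21, and no member reached an unadjusted p under 0.05. Ccl3, a chemokine of monocytes, had 140, 182 and 133 CPM in Tbk1+/-;Ripk1D138N/D138N and 128, 135 and 129 CPM in WT. Tnf itself had 27.96, 12.2 and 24.7 CPM in Tbk1+/-;Ripk1D138N/D138N and 13.99, 12.3 and 16.3 CPM in WT (log2 fold change 0.61, 95% interval -0.21 to 1.44). Il1b had 27.2, 6.94 and 24.5 CPM in Tbk1+/-;Ripk1D138N/D138N and 15, 10.6 and 24.8 CPM in WT. In both genes D138N/D138N replicate 2 lay lowest of the 6. The chemokines Ccl9, Ccl4 and Ccl2 were highest there, and Ccl2 had 7.49, 53.1 and 6.50 CPM in Tbk1+/-;Ripk1D138N/D138N against 8.29, 10.1 and 8.01 CPM in WT, so that a single library carried its log2 fold change of 1.34. Of 30 NF-kB targets and feedback genes 17 (56.7%) were within 2-fold, with a median of 0.01. Sqstm1, an autophagy receptor, had 795, 762 and 816 CPM in Tbk1+/-;Ripk1D138N/D138N and 893, 849 and 724 CPM in WT, and Cd83, a surface marker of activation, had 343, 332 and 360 CPM against 314, 253 and 314 CPM in WT. Ccrl2, an atypical chemokine receptor, had a log2 fold change of -0.63 (95% interval -1.14 to -0.12).

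**Figure D4:**
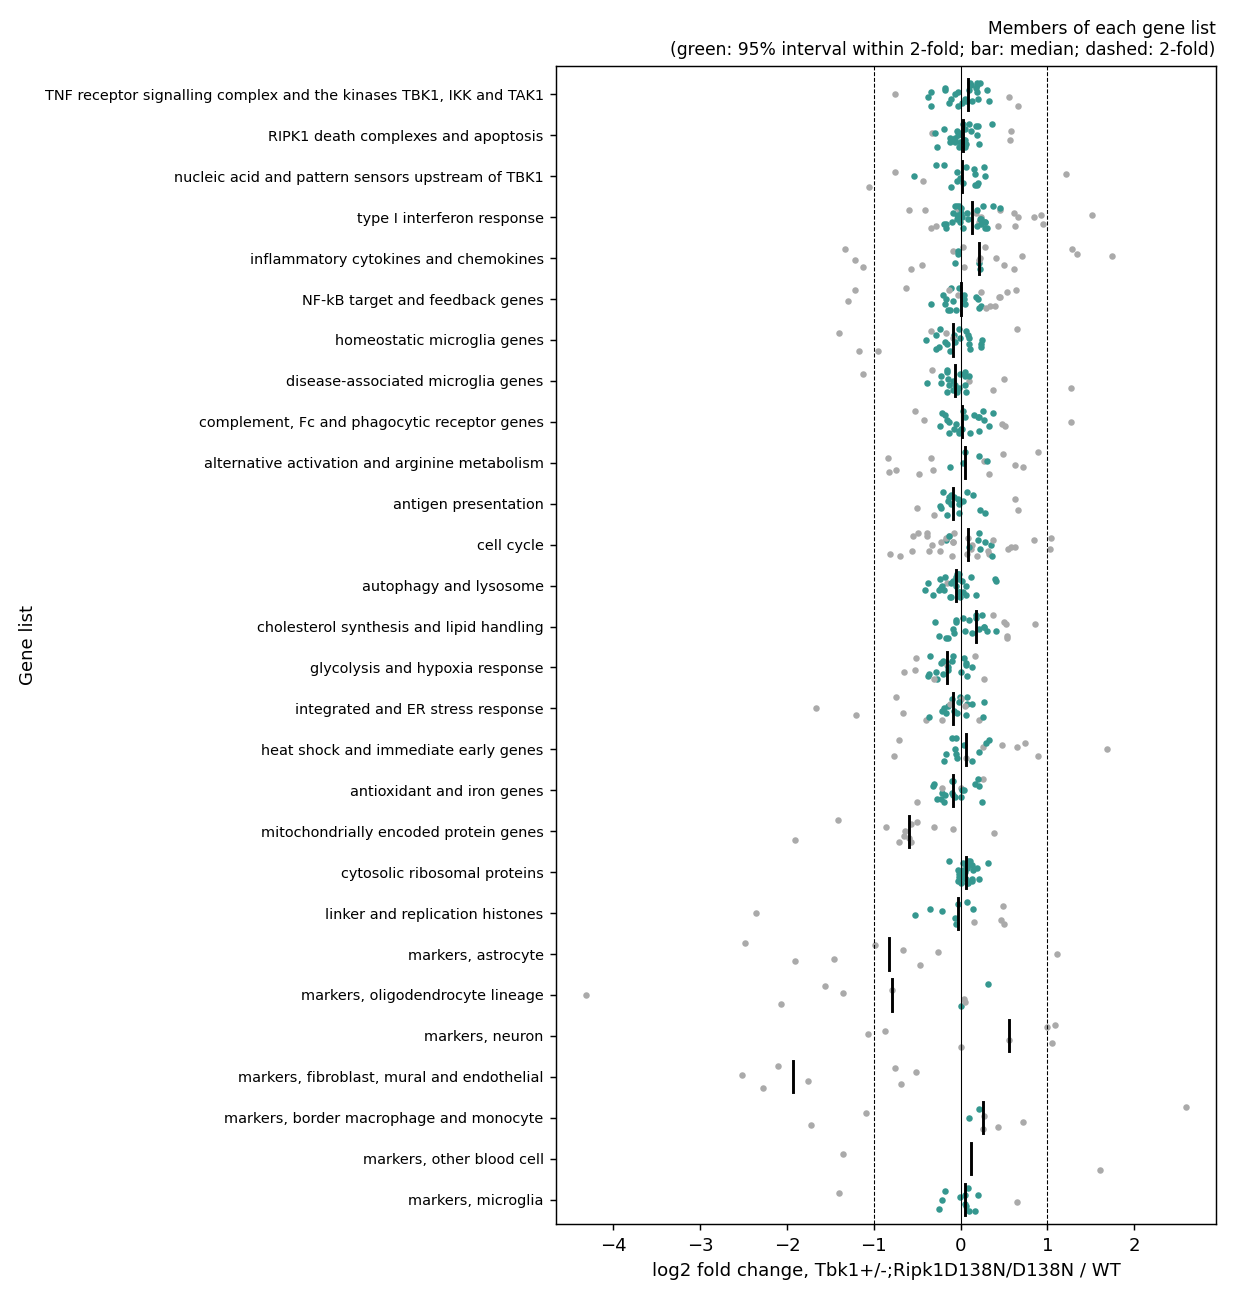
Log2 fold change (Tbk1+/-;Ripk1D138N/D138N over WT) of each tested member of 21 gene lists and 7 marker lists, in green where the 95% interval lay within 2-fold, with the median of the list as a bar. H2-Eb1 and Dcn, at 0 in all Tbk1+/-;Ripk1D138N/D138N libraries, are not drawn, and the medians of the lists other than mitochondrial genes and markers of other cells lie between -0.15 and 0.21.

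Markers that define microglia were mostly bounded near WT. Of 13 tested defining markers, 11 were within 2-fold. The summed level of the 14 listed was 10530, 9453 and 10270 CPM in Tbk1+/-;Ripk1D138N/D138N and 10280, 9797 and 9248 CPM in WT. The growth factor receptor Csf1r had 2618, 1619 and 2461 CPM in Tbk1+/-;Ripk1D138N/D138N and 2184, 1963 and 2154 CPM in WT. The fractalkine receptor Cx3cr1 had 529, 327 and 498 CPM in Tbk1+/-;Ripk1D138N/D138N and 454, 456 and 452 CPM in WT, with a log2 fold change of -0.01 (95% interval -0.42 to 0.40). In both receptors replicate 2 was lowest of the 6. P2ry12 and Tmem119, defining genes of microglia in tissue, were low in these cultures, with 8.27 to 11.2 CPM and 5.41 to 6.56 CPM in Tbk1+/-;Ripk1D138N/D138N and 9.17 to 15.7 CPM and 3.005 to 4.495 CPM in WT. Of the 27 tested homeostatic genes 20 (74.1%) were within 2-fold, with a median of -0.08. Cd33, a sialic-acid-binding inhibitory receptor, stood out, with 40.8, 29.8 and 40.0 CPM in Tbk1+/-;Ripk1D138N/D138N against 99.3, 100 and 50.0 CPM in WT. The groups did not overlap, but WT replicate 3 lay near the other genotype (log2 fold change -1.17, 95% interval -1.93 to -0.42, unadjusted p = 0.00478). Tgfbr1, a receptor of TGF-beta, was bounded at a log2 fold change of -0.28 (unadjusted p = 0.041).

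Disease-associated microglia genes, which microglia raise around lesions and lipid debris, had 19 of 25 members (76%) within 2-fold and a median of -0.07. Lyz2, which encodes a lysozyme, had 42280, 28520 and 39890 CPM in Tbk1+/-;Ripk1D138N/D138N and 39360, 35040 and 37050 CPM in WT. Apoe, the lipid carrier, had 37450, 33970 and 41410 CPM in Tbk1+/-;Ripk1D138N/D138N and 39800, 32750 and 36230 CPM in WT, with a log2 fold change of 0.05 (95% interval -0.30 to 0.41). Both were bounded and overlapped. Spp1, which encodes osteopontin, had 27190, 47400 and 27020 CPM in Tbk1+/-;Ripk1D138N/D138N and 42300, 47610 and 29290 CPM in WT, high in the libraries with a high mitochondrial share. Complement, Fc and phagocytic receptor genes had 23 of 28 members (82.1%) within 2-fold. C1qb, a chain of complement C1q, had 2734, 2096 and 2703 CPM in Tbk1+/-;Ripk1D138N/D138N and 1905, 1700 and 2413 CPM in WT (log2 fold change 0.32, unadjusted p = 0.0706). Fcgr1, a high-affinity IgG receptor, was higher in all 3 libraries, at 166, 153 and 160 CPM against 107, 103 and 126 CPM in WT, and its interval included 0 (-0.04 to 1.07). Antigen presentation had 17 of 22 tested members (77.3%) within 2-fold, B2m and Ctss among them with log2 fold changes of -0.16 and -0.14. In the alternative activation list 5 of 17 tested members (29.4%) were bounded. Myc, a growth regulator, had 36.2, 48.4 and 32.96 CPM in Tbk1+/-;Ripk1D138N/D138N, against 21.97, 27.99 and 26.1 CPM in WT (log2 fold change 0.63, unadjusted p = 0.0172).

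TBK1 phosphorylates several autophagy receptors. Autophagy and lysosome genes were the most bounded list after ribosomal proteins, with 31 of 32 (96.9%) within 2-fold and a median of -0.06. Of the 32, 24 were below 0. The lysosomal proteases Ctsd and Ctsb had log2 fold changes of -0.24 and 0.07, and Psap, a saposin precursor, had 3379, 3661 and 3447 CPM in Tbk1+/-;Ripk1D138N/D138N and 3942, 3450 and 2915 CPM in WT. Atg5, needed to lipidate LC3, had 101, 109 and 103 CPM in Tbk1+/-;Ripk1D138N/D138N, against 141, 141 and 135 CPM in WT. Its libraries were close within each genotype and did not overlap (log2 fold change -0.41, 95% interval -0.68 to -0.14, unadjusted p = 0.00473). Lamp2, a lysosomal membrane protein, had 1416, 1720 and 1431 CPM in Tbk1+/-;Ripk1D138N/D138N, against 1839, 1999 and 1870 CPM in WT (log2 fold change -0.32, unadjusted p = 0.055). Atp6v0d2, a subunit of the proton pump, was the member not bounded. All 30 cytosolic ribosomal proteins (100%) were within 2-fold and 29 within 1.5-fold.

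In metabolic and stress lists several genes followed the mitochondrial share of the library. Glycolysis and hypoxia genes had 19 of 26 members (73.1%) within 2-fold and a median of -0.15. Ldha, lactate dehydrogenase A, had 539, 1024 and 527 CPM in Tbk1+/-;Ripk1D138N/D138N and 939, 1019 and 489 CPM in WT, and the glycolytic enzymes Pkm and Aldoa, the ferritin Fth1 and the heme oxygenase Hmox1 were likewise high in the 3 libraries with a high mitochondrial share. The 13 mitochondrially encoded protein genes make up that share, so their agreement with it is not a separate result. Of these, 12 were below 0, with a median of -0.60 and 0 within 2-fold, and in 1 the groups did not overlap. Mt-Co1, a subunit of cytochrome oxidase, had 1988, 7786 and 1904 CPM in Tbk1+/-;Ripk1D138N/D138N and 7514, 8130 and 2787 CPM in WT. Antioxidant and iron genes had 19 of 23 (82.6%), integrated and ER stress genes 16 of 26 (61.5%), and heat shock and immediate early genes 12 of 21 tested members (57.1%) within 2-fold. Cholesterol synthesis and lipid handling genes had 20 of 26 (76.9%) within 2-fold, 18 above 0 and a median of 0.18, and Soat1, which esterifies cholesterol, had an unadjusted p of 0.0435 (log2 fold change -0.30). Of the 13 tested histones 8 (61.5%) were bounded.

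Of the cell cycle genes 9 of 40 (22.5%) were within 2-fold, with a median of 0.08. Pcna, the clamp of DNA replication, had 148, 260 and 147 CPM in Tbk1+/-;Ripk1D138N/D138N and 122, 162 and 153 CPM in WT, with replicate 2 far above the other libraries. Ccne1, a cyclin of the entry into S phase, had 7.80, 17.1 and 8.86 CPM in Tbk1+/-;Ripk1D138N/D138N against 5.89, 5.77 and 4.64 CPM in WT (log2 fold change 1.05, unadjusted p = 0.0147), also highest in replicate 2. Cdc20 and Plk1, genes of mitosis, were lower without overlap, with log2 fold changes of -0.70 and -0.82 and intervals that included 0.

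Among 7 marker lists, the sums of 2, both of other cell types, did not overlap between the genotypes. The sums were not tested, and 11.6% of genes at 5 CPM or more also did not overlap. The 12 listed astrocyte markers summed to 33.2, 37.4 and 32.99 CPM in Tbk1+/-;Ripk1D138N/D138N and 55.4, 57.9 and 44.6 CPM in WT. Of the 8 tested, 7 were below 0. The 12 listed fibroblast, mural and endothelial markers summed to 11.3, 12.1 and 13.03 CPM in Tbk1+/-;Ripk1D138N/D138N and 68.0, 28.5 and 16.2 CPM in WT. The WT sum was by far the highest in replicate 1, and WT replicate 3 lay near the other genotype. All 8 tested markers were below 0, with a median of -1.93. Dcn, a proteoglycan of fibroblasts, was at 0 in all 3 D138N/D138N libraries, and its WT level of 6.01, 0.943 and 0 CPM rested on replicate 1. The list's median is the same with Dcn set to a floor of 3 counts per library (0.176 CPM). Dcn lies below that median either way, so the floor could not change it. The part of such cells in the genes given above was not tested, and in bulk RNA fewer cells of a type cannot be told apart from less RNA per cell. Oligodendrocyte lineage markers summed to 140 to 162 CPM in Tbk1+/-;Ripk1D138N/D138N and 137 to 153 CPM in WT, with Mbp, a myelin protein gene, at 60.3 to 82.3 CPM and 52.1 to 59.6 CPM among them. Of the 9 tested members 5 were below 0, with a median of -0.80. Neuron markers summed to 6.38 to 19.7 CPM in Tbk1+/-;Ripk1D138N/D138N and 6.06 to 23.1 CPM in WT. Markers of border macrophages and monocytes summed to 1188 to 1253 CPM in Tbk1+/-;Ripk1D138N/D138N and 924 to 1293 CPM in WT. The 14 listed markers of other blood cells, of which 2 were tested, summed to 1.07 to 3.26 CPM in Tbk1+/-;Ripk1D138N/D138N and 2.53 to 4.18 CPM in WT.

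Set against Tbk1+/- microglia in place of WT, the Tbk1+/-;Ripk1D138N/D138N libraries differed in 70 of 13447 genes (0.521%), of which 38 rose and 32 fell. Both comparisons use the same 3 D138N/D138N libraries. Of the 70 genes, 51 were within 2-fold of WT, beside 55.5% of all genes tested and 85.6% of those from 10 to 50 CPM. Hist1h1c (chromosome 13, 23738808 to 23740367), a linker histone, had 153, 188 and 162 CPM in Tbk1+/-;Ripk1D138N/D138N, 350, 372 and 420 CPM in Tbk1+/- and 182, 173 and 157 CPM in WT. It fell against Tbk1+/- (log2 fold change -1.18, SE 0.14, adjusted p = 0.00163), and against WT its log2 fold change was -0.03 (95% interval -0.32 to 0.27). Camk1 (chromosome 6, 113334124 to 113343984), a calmodulin-dependent kinase, had 312, 272 and 283 CPM in Tbk1+/-;Ripk1D138N/D138N, 184, 149 and 134 CPM in Tbk1+/- and 276, 251 and 273 CPM in WT. It rose against Tbk1+/- (log2 fold change 0.89, SE 0.12, adjusted p = 0.00342), and against WT its log2 fold change was 0.12 (-0.13 to 0.36). In both genes the Tbk1+/- libraries stood apart from all 6 others.

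The test called 7 genes between Tbk1+/- and WT, and 6 of them were within 2-fold of WT in Tbk1+/-;Ripk1D138N/D138N, beside 55.5% of all genes and 85.6% to 97% of those above 10 CPM. In 2 of these 3 libraries Tbk1 itself was at the WT level. Besides Hist1h1c and Camk1 these were Esyt1, a tether of the endoplasmic reticulum to the plasma membrane, the chemokine Cxcl14, the sarcomere protein Myom1 and the ferrireductase Steap3, with log2 fold changes against WT from -0.23 to 0.26. Against Tbk1+/-, Esyt1 rose (adjusted p = 0.0388) and Cxcl14 and Myom1 fell (0.0464 and 0.036), while Steap3 did not pass (0.063). Il7r was the exception, at 46.6, 56.5 and 39.2 CPM in Tbk1+/-, and Tbk1+/-;Ripk1D138N/D138N did not differ from Tbk1+/- by the test (log2 fold change 0.26, SE 0.18, adjusted p = 0.525). Mean Il7r was also below the WT mean of 101 CPM in Tak1ΔM/+ (57.4 CPM), Tbk1+/-;Tak1ΔM/+ (24.6 CPM) and Tbk1+/-;Tak1ΔM/+;Ripk1D138N/+ (73.7 CPM). The WT libraries are shared by these comparisons. Other genes called against Tbk1+/- and within 2-fold of WT, chosen after their values were seen, included Sirpa, an inhibitory receptor, which rose (log2 fold change 1.09, adjusted p = 0.0411), and Cd86, a costimulatory ligand, and Ikbkg, the IKK scaffold NEMO, which fell (-1.48 and -0.71, adjusted p = 0.023 and 0.0434). Atg5 was also called lower against Tbk1+/- (-0.62, adjusted p = 0.0411), and was not called against WT. In Tbk1+/- replicates 1, 2 and 3, Sirpa had 907, 1671 and 759 CPM, and Cd86 had 207, 75.6 and 180 CPM. Replicate 2 lay nearest the D138N/D138N libraries, which had 1911 to 2694 CPM of Sirpa and 50.8 to 63.5 CPM of Cd86.

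The mitochondrial share was 1.82% to 2.20% in the Tbk1+/- libraries, above all 3 libraries they were set against, and with this share as a covariate 1 gene was called, and with the Y-linked level as a covariate 4. With the 2 libraries of WT-like Tbk1 left out the count was 0. It was 2, 110 and 5 without Tbk1+/-;Ripk1D138N/D138N replicate 1, 2 and 3, and 3, 631 and 2 without Tbk1+/- replicate 1, 2 and 3.

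**Figure D5:**
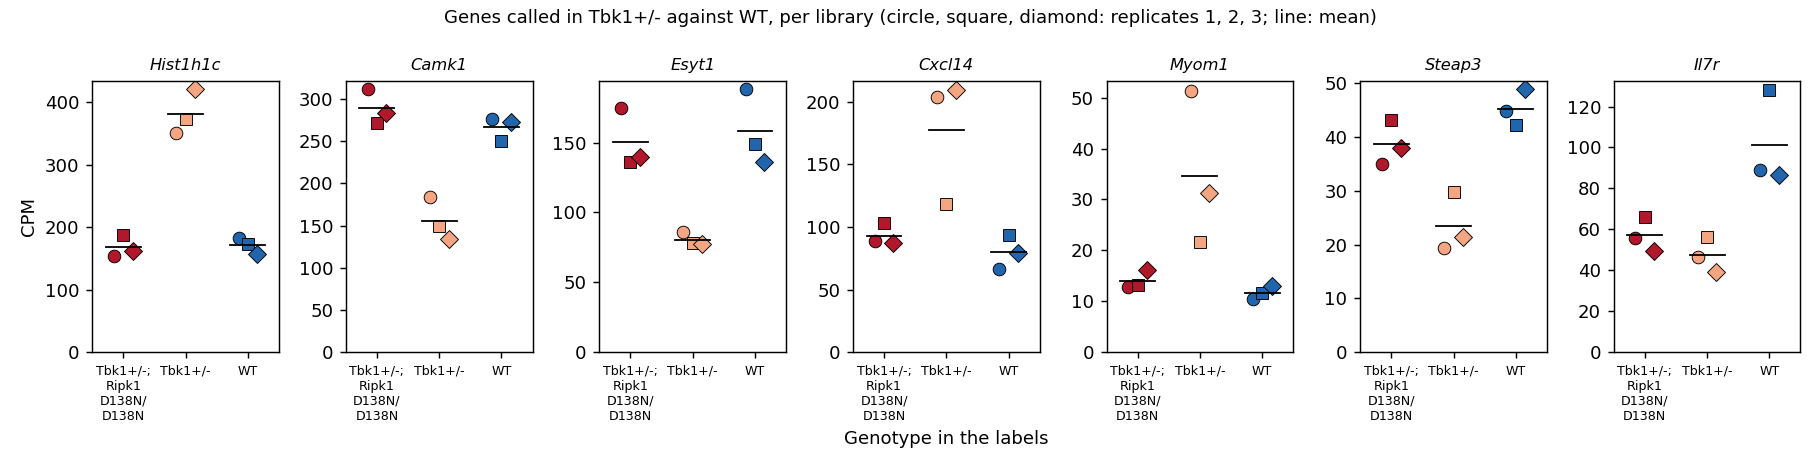
Level (CPM) in each library of Tbk1+/-;Ripk1D138N/D138N, Tbk1+/- and WT of the 7 genes called between Tbk1+/- and WT, with the mean as a line. In 6 genes the Tbk1+/-;Ripk1D138N/D138N libraries lie near WT, and in Il7r they lie near Tbk1+/-, at 49.5 to 65.97 CPM.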

How the data were processed

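Messenger RNA was counted in 18 libraries of primary microglia, 3 for each of 6 genotypes. The deposited values are whole-number counts of reads per gene, not normalized by the authors. The submitters' processing notes name STAR, featureCounts and mm10, whereas the labels' protocols name RSEM, and versions and strand setting are not given in the sources used here. Libraries were made by Smart-seq2, per the labels' protocols, without molecular identifiers or strand, so floors cover counting error only and reads of overlapping genes cannot be told apart. Symbols and coordinates are from GENCODE M21 (GRCm38).

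The filterByExpr filter over 6 genotypes left 13447 genes, libraries were scaled by TMM, and CPM are counts per 1e+06 of the scaled total. The edgeR 4.0.16 quasi-likelihood test (R 4.3.3) was fitted to all 18 libraries with a term per genotype and adjusted by Benjamini-Hochberg over those genes, with calls at an adjusted p under 0.05. The 95% interval of each log2 fold change came from the same fit and was not estimated for 145 genes. The script was tested on simulated data. Named genes were Tbk1, Ripk1 and Map3k7, up to 12 called genes a direction with at least 5 CPM and no overlap, filled to 10 by smallest p where fewer passed, up to 4 members of each of 22 gene lists with the most counts, and the 10 narrowest intervals at 50 CPM or more, of which 1 is not reported here. Members and lists were chosen with earlier results of these data known. DESeq2 1.42.0, limma-voom (limma 3.58.1), other filters, scalings, covariates and left-out libraries were alternatives.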

Additional observations from a re-analysis of the deposited data

How the results depend on the processing

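Between Tbk1+/-;Ripk1D138N/D138N and WT the count of called genes was 0 under all alternatives run except DESeq2, which called 7 (1 higher, 6 lower), and the fit without a filter on low counts, which called 59 (15 higher, 44 lower). It was 0 with the replicate number as a block (657 genes at an unadjusted p under 0.05) and 0 with each library left out. Deviations of same-numbered libraries from their group mean correlated at -0.02, 0.14 and 0.11 across genes, and those of differently numbered libraries at -0.17 to 0.09. These values do not settle whether the numbers pair the libraries, and the main fit had no term for them. The number of genes within 2-fold of WT was 7464, from 6615 to 6918 with a library left out, 5098 with both libraries of WT-like Tbk1 left out, and 3671 at a bound of 1.5-fold. Alternatives chosen after the data were seen were the mitochondrial covariate in a fit on these 6 libraries, with 7214 genes within 2-fold, and a split by that share. The number was 4885 and 5060 among the libraries with a mitochondrial share above and under 1%, where fewer libraries widen the intervals. Against Tbk1+/- the count of 70 became 491 with DESeq2, 754 without a filter, 119 with a filter at 5 CPM, 35 with the replicate block, 0 in a fit on the 6 libraries compared, 1 and 4 with the mitochondrial and Y-linked covariates, 2 to 631 with a library left out, and 0 with both libraries of WT-like Tbk1 left out. The cause was not tested. With a single library left out, Hist1h1c and Camk1 kept their call each time. Esyt1, Cxcl14, Myom1, Sirpa, Cd86, Ikbkg and Atg5 lost theirs without replicate 1 or 3 of either genotype, and kept it without replicate 2. Hist1h1c and Camk1 both lost their call in the fit on 6 libraries (adjusted p = 0.267 for each) and without both libraries of WT-like Tbk1, and Camk1 also with the mitochondrial covariate. Over 178 named results and 3380 alternative values, 0 changed sign after a call and 20 passed the threshold that the reported value missed. Another 352 moved by at least the standard error of the reported log2 fold change. Fewer than 10 CPM left most genes unbounded.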
